A study of Mus musculus with 6 samples.

Results

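Fos, Jun, Dusp1 and Arc are 4 immediate early genes, chosen by symbol from the 5538 genes of an RNA sequencing table of the mouse perioculomotor midbrain, and all 4 had a value in each of the 6 libraries. The mice, of strain C57BL/6, carried CreER, a tamoxifen-inducible recombinase, under the Fos promoter, together with a reporter that makes the ribosomal protein L10a fused to eGFP wherever Cre has acted. Each animal was kept awake for 6 hr and then allowed 3 hr of recovery sleep, with 4-OHT, the active form of tamoxifen, given just before 1 of these phases. The series text names the cells tagged in recovery sleep as those profiled, and the labels of single libraries do not give the phase. The 3 IP libraries hold RNA that came down with the eGFP-tagged ribosomes in an immunoprecipitation, and the 3 Input libraries are read here as RNA of the same kind of dissected tissue before that step. Both groups come from the same genotype, deprivation and recovery, and each library pooled tissue from 4 to 5 mice. The tag marks cells in which Fos was active while the drug was present, whereas the RNA was taken after the recovery period, and ages are not given in the labels.

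Immediate early genes are transcribed within minutes of a strong stimulus, from transcription factors already present in the cell, and their mRNAs are usually short-lived. In neurons, calcium entry and cyclic AMP act on them through the factors CREB and SRF, so that their transcripts are widely used as marks of recent activity. Fos and Jun encode partners of the dimeric transcription factor AP-1, Dusp1 encodes a nuclear phosphatase that switches MAP kinases off, and Arc encodes a protein that moves to dendrites and promotes removal of AMPA receptors from synapses.

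The promoter sequences are shown because the Fos promoter is the element that sets the tag in these mice, and because Jun and Dusp1 were the genes whose IP and Input values separated relative to the median gene of each library, though not as TPM. RefSeq (GRCm38.p6) had an entry for 3 of the 4 genes, and the 250 bases before each start site were taken at chr12:85473640-85473889 (plus strand) for Fos, chr4:95052223-95052472 (minus strand) for Jun and chr17:26508473-26508722 (minus strand) for Dusp1. For Dusp1 the end of this window overlaps the main GENCODE transcript given below, which begins at chr17:26508519. Distances for Dusp1 are counted from the RefSeq start. The extent of the promoter in the CreER transgene is not stated in these sources. Sequences read 5′ to 3′ on the gene's strand, with capitals for matches on either strand to the core TGACG, the full element TGACGTCA, the looser form TGACNTCA, the AP-1 form TGANTCA, the box TATAAA, the box CCAAT, the box GGGCGG, the CArG box or the MEF2 site.
Fos: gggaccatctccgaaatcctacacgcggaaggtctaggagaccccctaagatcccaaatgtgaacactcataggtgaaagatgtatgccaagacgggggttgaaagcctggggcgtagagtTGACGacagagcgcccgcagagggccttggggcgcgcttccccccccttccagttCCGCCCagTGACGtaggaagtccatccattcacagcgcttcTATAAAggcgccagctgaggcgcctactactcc
Jun: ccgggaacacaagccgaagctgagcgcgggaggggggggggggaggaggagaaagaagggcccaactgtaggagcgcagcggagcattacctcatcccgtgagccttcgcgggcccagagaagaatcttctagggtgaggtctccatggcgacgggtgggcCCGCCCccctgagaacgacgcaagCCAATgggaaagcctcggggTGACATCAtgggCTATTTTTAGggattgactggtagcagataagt
Dusp1: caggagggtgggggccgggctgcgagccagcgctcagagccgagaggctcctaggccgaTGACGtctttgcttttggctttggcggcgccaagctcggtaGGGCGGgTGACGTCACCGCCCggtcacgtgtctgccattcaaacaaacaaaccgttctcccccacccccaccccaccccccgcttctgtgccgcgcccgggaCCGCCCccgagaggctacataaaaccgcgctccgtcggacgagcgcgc
The core of the cyclic AMP response element, TGACG, was found in the Fos window beginning 129 and 66 bases before the start, and in the Dusp1 window beginning 191 bases before it and, within the full element TGACGTCA, 143 bases before it. TGACG was present in 17.8% of all 32851 promoter windows of this length, and TGACGTCA, which contains it, in 1.55%. The Jun window held TGACATCA, a form of TGACNTCA, beginning at 45 bases and a MEF2 site beginning at 33 bases. TGACNTCA, which also covers TGACGTCA, was found in 7.49% of all windows and the MEF2 site in 2.92%. TATAAA, found in 12.4% of all windows, was present only in the Fos window among the 3, beginning at 33 bases. GGGCGG was present in all 3 windows and in 32.7% of all windows, and CCAAT in the Jun window and in 33.8% of all. No match to TGANTCA (6.75% of all windows) or to the CArG box (1.47%) was found in these 3 windows. Sequence further than 250 bases before the start was not searched, so sites there would be missed.

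The 4 genes share a compact structure. In GENCODE M21 (GRCm38), the main coding transcript of Fos spans chr12:85473890-85477273 with 4 exons, that of Jun chr4:95049034-95052222 with 1 exon, that of Dusp1 chr17:26505590-26508519 with 4 exons and that of Arc chr15:74669083-74672568 with 3 exons. Their spans of 3384, 3189, 2930 and 3486 bases were all within the shortest 9.47% of 5356 coding genes in the table, whose median was 16536 bases and 8 exons. Their spliced lengths were not unusual, at 2108, 3189, 1990 and 3055 bases against a median of 2387 (2386.5). The pentamer ATTTA, part of the AU-rich elements that mark short-lived mRNAs, occurred 4 times in the 3′ untranslated regions of Fos, Jun and Dusp1, a number that 86.1% of the genes with such a region did not exceed, and 0 times in that of Arc. The longer form TTATTTATT occurred 1 time in Fos, 2 times in Dusp1 and 0 times in Jun and Arc, and in 5.82% of the 5309 genes with such a region. Jun overlaps the antisense gene Junos, and a long Dusp1 transcript reaches into Ergic1 on the other strand. The labels do not state that counting used strand, so reads from such partners cannot be told apart.

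The values are TPM, a transcript abundance that is corrected for transcript length and set to the same total in every full library. Libraries differed in where their typical gene stood, with a median gene between 27.7 and 56.5 TPM in IP and between 31.1 and 67.2 TPM in Input, so each gene is also given relative to the median gene of its own library. IP 1 and Input 3 had the lowest medians and stood apart from the others. Across genes on the log2 scale, Input 3 correlated with Inputs 1 and 2 at 0.722 and 0.736, against 0.973 between those 2, and IP 1 with IP 2 and IP 3 at 0.831 and 0.882, against 0.962. The correlations of Input 3 with the IP libraries, 0.786, 0.817 and 0.851, were higher than those with its own group, so by this measure Input 3 was closer to IP than to the other Inputs. Summed TPM of the 3 measured mitochondrially encoded transcripts were 65.1 in Input 3, 4461 and 4696 in the other Inputs, and 188 to 884 in IP. Results that rest on Input 3 or IP 1 are given with and without them. Only genes at 7 TPM or more in every library are listed, and read depth is unknown.

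Fos, whose promoter drives the labelling, was among the least abundant genes of the table in 5 libraries, where at most 8.65% of genes stood at or below it, and near the middle in Input 3 (41.5%). It had 7.66, 19.1 and 16.03 TPM in IP 1, 2 and 3, against 12.2, 14.7 and 25 TPM in Inputs 1, 2 and 3. The groups overlapped, with the lowest value in IP 1 and the highest in Input 3. Relative to the median gene, Fos stood at 0.277, 0.337 and 0.315 in the IP libraries, at 0.190 and 0.219 in Inputs 1 and 2, but at 0.805 in Input 3. Its 3 IP values were thus close together (0.310 ± 0.0304, SD, n = 3) and lay above Inputs 1 and 2 but far below Input 3. In IP 1, with a median gene of 27.7 TPM, the limit of 7 TPM kept every gene above the level of Fos in Inputs 1 and 2. The log2 difference of IP minus Input was -0.04 (SE 0.52, 95% interval -1.26 to 1.17), with an adjusted p of 0.983 in limma over all genes. Without Input 3 it was 0.59 (0.03 to 1.16, adjusted p = 0.343), so the direction of Fos depended on that library. Fos in Input 3 exceeded the mean of Inputs 1 and 2 by 1.91 log2 units relative to the median gene, and 97.8% of all genes had a smaller shift. With TPM not centred on the median gene, the difference without Input 3 was 0.00 (-0.0045), so the higher value of Fos in IP than in those Inputs is a statement relative to the typical gene only.

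Jun, the AP-1 partner of Fos, had 14.2, 35.6 and 25.1 TPM in the IP libraries, against 23.5, 26.8 and 12.1 TPM in the Input libraries. As TPM the groups overlapped, with low values in IP 1 and Input 3, the libraries with the lowest medians. Relative to the median gene, Jun stood at 0.514, 0.630 and 0.492 in IP and at 0.366, 0.399 and 0.389 in Input, so that every IP library lay above every Input library. The 3 Input values were tight (0.385 ± 0.0170, SD, n = 3), and Input 3 did not stand apart for this gene. The log2 difference was 0.48 (SE 0.22, 95% interval -0.04 to 0.997), with an adjusted p of 0.658 in limma. The two-sided exact permutation test over the libraries gave p = 0.1, the smallest value that 3 against 3 allows. Without Input 3 the difference was 0.50 (adjusted p = 0.395). Without centring and without Input 3 it was -0.10.

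Dusp1, the MAP kinase phosphatase, was the most abundant of the 4 genes in 5 of the 6 libraries and had the largest difference. It had 22.8, 62.1 and 47.6 TPM in the IP libraries, against 29.8, 45.0 and 13.01 TPM in the Input libraries. Its TPM overlapped between the groups, but relative to the median gene it stood at 0.825, 1.10 and 0.934 in IP and at 0.463, 0.670 and 0.419 in Input, with no overlap. In IP, Dusp1 was thus near the level of a typical gene, and in Input below it in each library. The log2 difference was 0.87 (SE 0.26, 95% interval 0.26 to 1.48), larger than that of 94.4% of all genes. Its unadjusted p in limma was 0.0115, and its adjusted p over all genes was 0.649. An unadjusted p under 0.05 was found for 198 genes (3.58%) in this direction and 213 (3.85%) in the other. The exact permutation p was again 0.1. Without Input 3 the difference was 0.75 (adjusted p = 0.284), and with IP 2 and IP 3 against Inputs 1 and 2 it was 0.85 (adjusted p = 0.0678). Without centring it was 0.63 over all libraries and 0.15 without Input 3, keeping its sign with a smaller size.

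Arc, the dendritic effector, had values that overlapped fully between the groups on both scales. It had 8.64, 14.8 and 20.1 TPM in the IP libraries, against 17.5, 22.8 and 9.40 TPM in the Input libraries. Relative to the median gene it stood at 0.312, 0.261 and 0.394 in IP and at 0.272, 0.340 and 0.303 in Input. The log2 difference was 0.07 (SE 0.25, 95% interval -0.52 to 0.67, limma adjusted p = 0.932), an interval that leaves room for a difference of the size of that of Jun. Relative to the median gene, Arc was the steadiest of the 4 genes, with an SD of 0.21 log2 units over the 6 libraries, and 9.25% of all genes had an SD as small. Without centring its difference was -0.17, and -0.51 without Input 3.

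**Figure D1:**
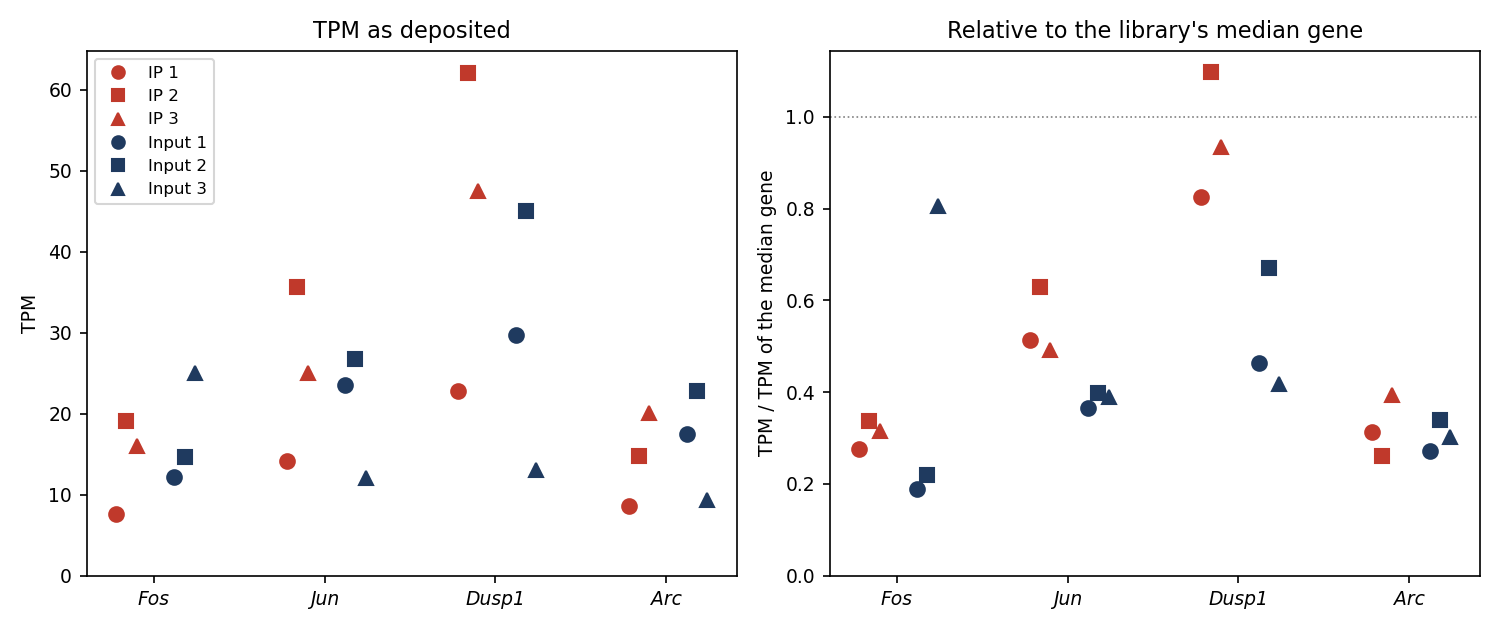
Values of the 4 genes in each library, as TPM (left) and divided by the TPM of the library's median gene (right, dotted line at 1), with red marks for IP and navy marks for Input (replicate 1 a circle, 2 a square, 3 a triangle). On the right, all IP points of Jun and Dusp1 lie above all Input points, while Fos has 1 Input point, Input 3 at 0.805, above its IP points.

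No gene of the table passed the test of IP against Input: limma called 0 genes higher (0%) and 0 lower (0%) at an adjusted p of 0.05, with a smallest adjusted p of 0.649. Of the 4 genes, Jun and Dusp1 had all IP values above all Input values relative to the median gene, as did 384 of all genes (6.93%), and none had them all below, as did 538 (9.71%). With TPM as deposited, none of the 4 separated in either direction, against 94 genes above (1.70%) and 344 below (6.21%). Against Inputs 1 and 2 alone, Fos, Jun and Dusp1 all lay above in IP relative to the median gene, where 18.1% of all genes lay above and 20.2% below. For Fos, IP 1 had to lie above these Inputs. At a median gene of 27.7 TPM, the limit of 7 TPM allowed no level in IP 1 as low as 0.219. With only 2 Input libraries the smallest exact two-sided p is 0.2, the value obtained for Fos, Jun and Dusp1 alike. In this comparison 16 genes were called higher (0.289%) and 1 lower (0.0181%), and with IP 2 and IP 3 against Inputs 1 and 2, 187 were called higher (3.38%) and 160 lower (2.89%), none of them among the 4. Within bulk tissue, fewer cells that carry a transcript and less of it per cell cannot be told apart.

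**Figure D2:**
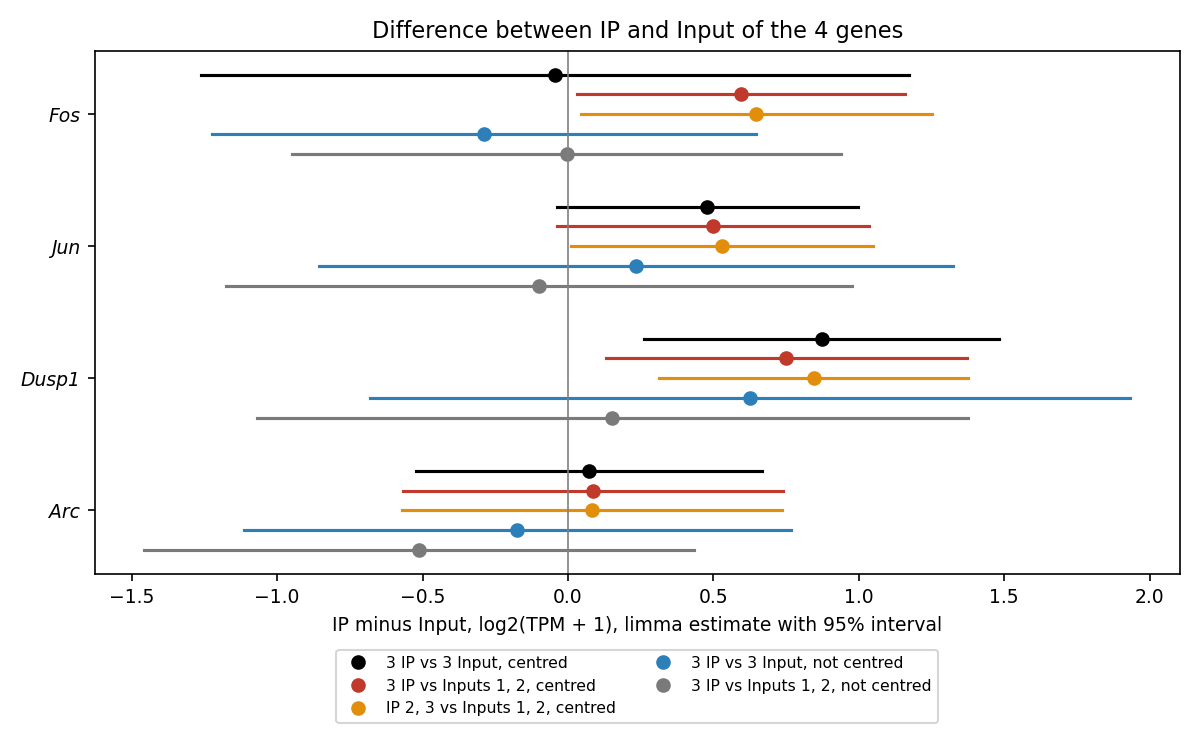
IP minus Input difference of each gene on the log2(TPM + 1) scale (horizontal axis), as the limma estimate with its 95% interval, unadjusted for the number of genes, for 5 choices of libraries and scaling. The estimate of Dusp1 is above 0 under each of the 5, while that of Fos moves from -0.04 to 0.59 when Input 3 is left out and that of Arc lies within 0.09 of 0 in the centred fits shown.

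The ratio of Fos to Jun within a library does not depend on the scaling. It was 0.539, 0.535 and 0.640 in IP 1, 2 and 3, and 0.519 and 0.548 in Inputs 1 and 2, so that the AP-1 partners kept nearly the same proportion in 5 libraries. In Input 3 the ratio was 2.07. Dusp1 to Fos followed the same division, lying between 2.97 and 3.26 in IP and at 2.44 and 3.06 in the first 2 Inputs, but at 0.520 in Input 3. Dusp1 to Arc was 2.64, 4.21 and 2.37 in IP and 1.70, 1.97 and 1.38 in Input, so that the groups did not overlap. Arc itself was steady relative to the median gene (SD 0.21 log2 units), so this ratio comes close to the median scaling. The share of all genes whose ratio to Arc separated in this way was not determined. Jun to Arc was 1.64, 2.41 and 1.25 in IP and 1.34, 1.17 and 1.29 in Input, and overlapped. Dusp1 to Jun overlapped too, at 1.61 to 1.90 in IP and 1.08 to 1.68 in Input.

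**Figure D3:**
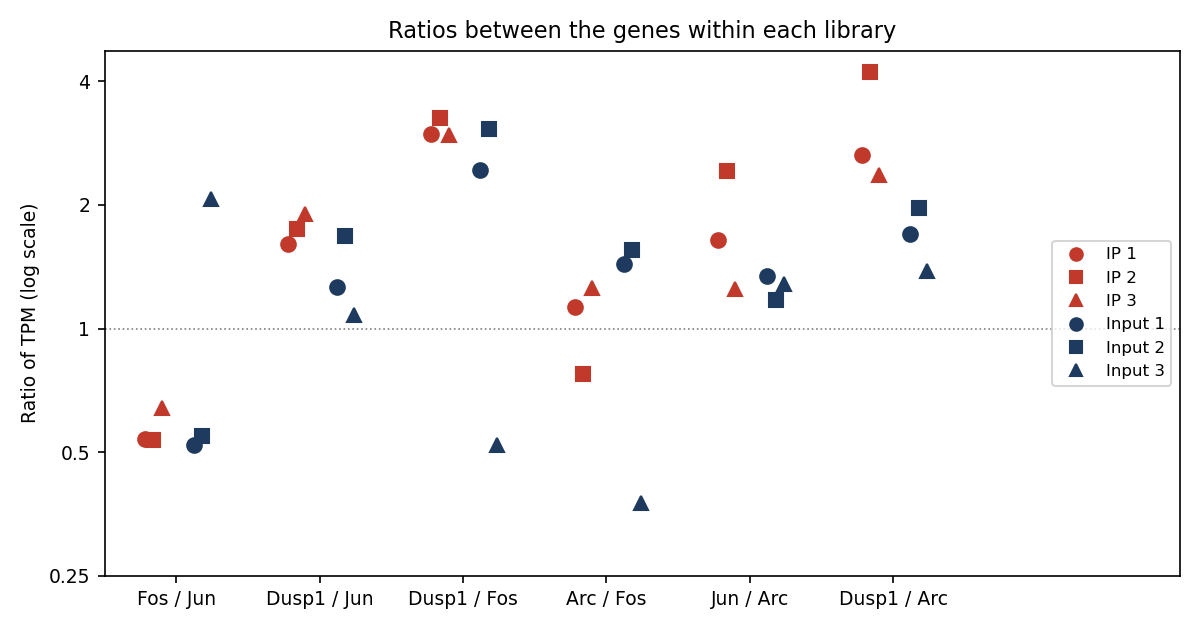
Ratios of TPM between pairs of the 4 genes within each library (log axis), with red marks for IP and navy marks for Input (replicate 1 a circle, 2 a square, 3 a triangle). Input 3 departs from the other 5 libraries in the 3 ratios that contain Fos, and Dusp1 / Arc has all IP points above all Input points.

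The 2 wider lists of immediate early genes, 67 in all, had values for 19, since the others are not listed. Of these, 11 had a positive difference, with a median of 0.07, against 51.8% of all genes and a median of 0.02. None was called, 3 lay above in IP without overlap (Jun, Dusp1 and Mcl1) and 1 below (Sgk1), beside 6.93% and 9.71% of all genes. Mcl1, a survival factor of the BCL2 family, reached 75.6, 61.7 and 56.3 TPM in the IP libraries. Its Input values were 23.8, 25.1 and 28.3 TPM, which is a log2 difference of 1.53 (SE 0.49). As TPM, Mcl1 also lay above in IP without overlap, beside 1.70% of all genes. Sgk1, a kinase induced by glucocorticoids, had a difference of -0.19. Without Input 3, 14 of the 19 had a positive difference and the median was 0.50, against -0.01 for all genes, and 9 lay above in IP without overlap, beside 18.1% of all genes. Under the limit of 7 TPM, low members such as Fos and Ier2 could not lie below Inputs 1 and 2 in IP 1. The count and this share are thus not fully alike.

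Like Fos, the early transcription regulators Junb and Ier2 were highest in Input 3. Junb, an AP-1 subunit, stood at 24.0, 24.3 and 20.4 TPM in the IP libraries against 11.8, 21.5 and 67.1 in the Inputs. Ier2, a nuclear early response protein, stood at 13.1, 22.3 and 13.3 TPM in the IP libraries against 7.64, 11.1 and 29.9 in the Inputs. Their shifts in Input 3 against Inputs 1 and 2 were 3.06 and 2.65 log2 units, more than those of 99.3% and 98.9% of all genes. Over the 19 genes the median shift was 1.14, against 0.01 for all genes. Jun, Arc and Dusp1 did not share it, with shifts of 0.06, 0.04 and -0.37, and Rgs2, an inhibitor of G protein signalling, had -1.69. Input 3 thus had more Fos, Junb and Ier2 relative to its typical gene than Inputs 1 and 2, and about as much Jun and Arc. The median gene of Input 3 was 31.1 TPM and the limit 7 TPM. No listed gene could therefore stand as low there as Fos and Ier2 did in Inputs 1 and 2. The 19 genes and all genes were not matched in level, and the part of this limit in the median shift was not tested. The comparison of IP 2 and IP 3 with Inputs 1 and 2 leaves out the libraries that stand apart. There, 2 of the 19 genes were called higher in IP and 0 lower, beside 3.38% and 2.89% of all genes. They were Mcl1 (log2 difference 1.53, limma adjusted p = 0.00373) and Nfkbia, the inhibitor of NF-kappa-B (0.96, adjusted p = 0.0404). Over all 6 libraries the groups overlapped for Nfkbia (limma adjusted p = 0.688).

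**Figure D4:**
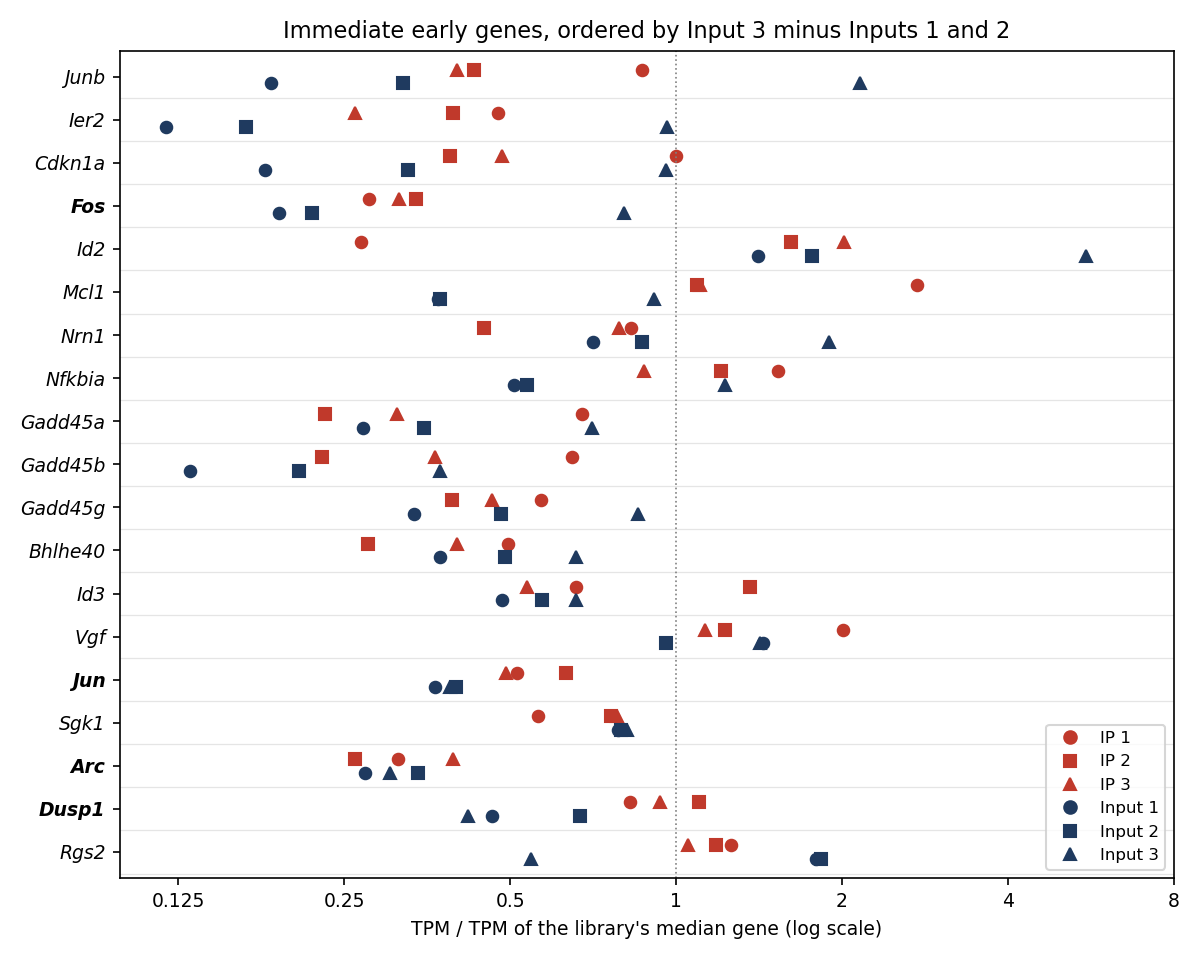
TPM of the 19 measured immediate early genes divided by the TPM of the library's median gene (log axis), with red marks for IP and navy marks for Input (replicate 1 a circle, 2 a square, 3 a triangle), ordered from top to bottom by Input 3 minus the mean of Inputs 1 and 2. For Junb, Ier2 and Fos, Input 3 lies to the right of all IP points and of Inputs 1 and 2, for Jun and Arc it lies between Inputs 1 and 2, and for Dusp1 to their left (the 4 genes have names in bold).

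Among AP-1 subunits and related leucine zipper factors, 12 of 30 had values, 8 with a positive difference and a median of 0.08. Over all 6 libraries, 2 of the 12 lay above in IP without overlap and 1 below, beside 6.93% and 9.71% of all genes. Without Input 3 the median was 0.55, with 9 positive and 8 above in IP without overlap, beside 18.1% of all genes. As for Fos, the limit of 7 TPM held some low members in IP 1 above Inputs 1 and 2. The count and this share are thus not fully alike. Mafg, a small Maf protein that pairs with several of these factors, reached 319, 256 and 281 TPM in the IP libraries. Its Input values were 71.7, 43.2 and 106 TPM (log2 difference 2.27, SE 0.63, limma adjusted p = 0.649). With IP 2 and IP 3 against Inputs 1 and 2, Mafg was called higher (adjusted p = 0.00133), as were 3.38% of all genes. Atf2, a partner of Jun, stood at 13.9, 36.3 and 28.6 TPM in the IP libraries against 66.1, 65.3 and 40.3 in the Inputs. Its difference was -0.91 (SE 0.23, limma adjusted p = 0.649). Atf2 lay below in IP without overlap on either scale, beside 9.71% of all genes relative to the median gene and 6.21% as TPM. None of the 12 was called over all 6 libraries.

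The kinases that lie before and after Dusp1 had differences of both signs. Of 34 MAP kinases, their activators and their target kinases, 22 had values, 13 with a positive difference and a median of 0.38, and none was called. Relative to the median gene, 6 of the 22 lay above in IP without overlap, beside 6.93% of all genes, among them Mapkapk2, Mapk14, Rps6ka2, Map2k2 and Map2k5, with differences of 1.08, 0.91, 0.77, 0.62 and 0.33. Mapk14 encodes p38 alpha, a substrate of Dusp1, and Mapkapk2 the kinase that p38 activates. Map2k1 and Araf, of the branch that leads to ERK, lay below with -0.73 and -0.60, beside 9.71% of all genes. Without Input 3 the median of the list was 0.14. Of 24 phosphatases of the Dusp family, 8 had values. Apart from Dusp1, their differences ran from -0.53 in Dusp28 to 0.51 in Dusp22. Dusp26 lay below in IP without overlap (-0.38), beside 9.71% of all genes.

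Regulators that couple activity to transcription (calmodulins, calcium- and cyclic AMP-dependent kinases, calcineurin, CREB and MEF2 factors) had values for 17 of 41, 7 with a positive difference and a median of -0.17, and 0 called. Without Input 3, 3 of these 17 were positive (17.6%, against 49.5% of all genes), with a median of -0.24. Partners of Arc in spines and endocytosis had values for 13 of 32, with a median of -0.06 and no gene without overlap. Their differences ran from -0.28 to 1.12. The highest, that of Dnm1, was 0.04 without Input 3. Proteins that bind or degrade AU-rich mRNAs had values for 7 of 22, with a median of -0.14 and likewise no gene without overlap.

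Marker genes of the cells in the tissue were read beside these values. The 5 measured cholinergic and oculomotor genes, of 8, all had positive differences (median 1.28), with summed TPM of 412 to 643 in IP and 186 to 326 in Input, and Isl1, a motor neuron transcription factor, had 1.43 (SE 0.44). All 18 pan-neuronal genes had values, with a median of 0.18 that turned to -0.06 without Input 3. Endothelial markers had values for 4 of 11 (Ly6c1, Ly6a, Egfl7 and Pltp), all positive with a median of 1.29. Their summed TPM were 174, 814 and 175 in IP 1, 2 and 3 and 164, 204 and 99.7 in Input. IP 2 had the most Jun and Dusp1 of all libraries. It also had the most summed TPM of the endothelial, cholinergic and pan-neuronal lists (814, 643 and 13883). Markers at 0 cannot be named, since genes under the table's limit are not listed; Cldn5, Pecam1 and Cdh5 were among the endothelial markers without a value, as were all markers of mural cells, ependymal cells and oligodendrocyte precursors. The 2 measured microglial markers, of 11, had summed TPM of 21.4 to 38.6 in IP and 33.2 to 85.5 in Input, and 6 of 13 astrocyte markers 864 to 2209 in IP and 827 to 4043 in Input, with median differences of -0.38 and -0.32, or -0.42 and -0.73 without Input 3. The oligodendrocyte list (6 of 11) had a median of -0.34 and the blood list (2 of 6) -0.61, or -1.08 and -1.79 without Input 3. The cholinergic and endothelial medians were 1.61 and 1.09 without it. The part of any of these cells in the values of the 4 genes was not tested.

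The genes with the pattern most like each of the 4 over the 6 libraries were taken by Pearson's r of the centred log2 values. For Fos these were Nrd1, Mis12 and Cyb5r4 (r = 0.994, 0.992 and 0.991), all highest in Input 3. For Jun they were Aldh18a1 and Sorl1 (0.989 and 0.986), and for Dusp1 Pde4a, Tmem63b and Lgi3 (0.993, 0.992 and 0.985). For Arc they were Slc25a16, Dscr3 and Ttc4 (0.907, 0.890 and 0.889). An r above 0.9 was reached by 139 named genes with Fos, 62 with Jun, 66 with Dusp1 and 1 with Arc. The 6 points share 2 groups and hold 2 libraries that stand apart, and these r are descriptions only. Between the members themselves, r was 0.90 for Jun and Dusp1, 0.08 for Fos and Jun and -0.23 for Fos and Dusp1. Over the 5 libraries without Input 3, r was 0.95 for Fos and Jun and 0.97 for Fos and Dusp1, while Arc had 0.20 with Fos, -0.10 with Jun and 0.20 with Dusp1.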

How the data were processed

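The deposited table gives TPM per gene and library, as its header states, for 3 IP and 3 Input libraries. RSEM, DESeq and mm10 appear in the submitters' processing notes, without roles or versions; no source used here names an aligner. TPM keep no read depth, so depth cannot set an error here. All 6 value columns were used, and no listed value was under 7.

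TPM were transformed to log2(TPM + 1), and the median of all listed genes was subtracted in each library, because the libraries differ in that median. IP was compared with Input by limma 3.58.1 in R 4.3.3 (lmFit, eBayes with trend, group as the only term), calling genes at an adjusted p of 0.05 (Benjamini-Hochberg, all 5538 genes); the procedure was tested on simulated data. Log2 differences on this scale understate changes of genes with low TPM. A replicate is a pool of mice, so p-values measure the spread between pools. Single genes were also tested by exact two-sided permutation over libraries. Gene models came from GENCODE M21 (GRCm38, the same assembly as mm10) and promoters from RefSeq (GRCm38.p6). Alternatives were another pseudocount, no centring, quantile normalization, a mean TPM of at least 10, a replicate block, and fits without single libraries.

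The 4 genes, the gene lists and the alternatives were chosen with earlier results of these data known. Named genes are the 4 members, up to 6 members of a list (beyond 6, the 3 highest and 3 lowest), and the 3 genes most like each member over the 6 libraries, without predicted models and pseudogenes. Some results under this rule are not reported here. Rgs2, Nfkbia, Rps6ka2, Map2k2 and Map2k5 lie outside that rule and were named after their values were seen.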

Additional observations from a re-analysis of the deposited data

How the results depend on the processing

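Over 13 alternatives, the difference of Dusp1 kept its direction in all, between 0.15 and 1.06, with adjusted p from 0.0678 to 0.999, and that of Jun in 12, between -0.10 and 0.55 (adjusted p 0.204 to 0.999). None of the 4 genes passed the threshold under any of them. With single libraries left out, the differences ran from 0.75 to 1.06 for Dusp1, 0.38 to 0.55 for Jun, -0.41 to 0.59 for Fos and -0.068 to 0.22 for Arc, and the median of the 19 immediate early genes from -0.011 to 0.50. Fos turned positive without IP 1 (0.011), without Input 3 (0.59) and with IP 2 and IP 3 against Inputs 1 and 2 (0.65), where the list median was 0.53. Arc turned negative without centring (-0.17), under quantile normalization (-0.030), without IP 3 (-0.068), without Input 1 (-0.011) and, in an alternative chosen after seeing the data (no centring and no Input 3), at -0.51, where Jun was -0.10. The cause was not tested. Counts of called genes were 0 in both directions, except 16 higher and 1 lower without Input 3 (0 to 16 and 0 to 1 with single libraries left out), 187 and 160 with IP 2 and IP 3 against Inputs 1 and 2, and 19 and 2 without centring and Input 3. Without centring the median gene itself differed by -0.23, and by -0.60 without Input 3.

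With the replicate number as a block, the differences were the same (Fos -0.04, Jun 0.48, Dusp1 0.87, Arc 0.07), with adjusted p of 0.988, 0.795, 0.780 and 0.968, a list median of 0.07, and 0 genes higher and 0 lower. Deviations of same-numbered IP and Input libraries from their group means correlated at -0.10, 0.25 and -0.17 for numbers 1, 2 and 3. Pairs of unlike number ran from -0.25 to 0.19. IP 1 and Input 3, which stand apart, enter these group means, so the check cannot decide whether same-numbered libraries share a pool. The main fit used no pairing.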
